A study of Mus musculus with 20 samples.

Results

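Mouse embryonic stem (ES) cells that had received tamoxifen for 1 day were compared between day 4 and day 3 of culture, which were 3 days and 2 days after its removal. The comparison used the 2 arrays of withdrawn cells on day 4 and the 2 arrays of withdrawn cells on day 3, that is 4 of the 20 arrays of the series. They were chosen by their titles and not by any measured value. All cells came from a single clone of V6.5 ES cells, an F1 hybrid line, numbered 18 in the labels and carrying pCAG-Zscan4-ERT2 with a neomycin resistance gene. Control cells carried the same transgenes. Withdrawn cells were grown in 200 nM tamoxifen on day 1 and in plain ES medium, which contains LIF and serum, from then on. Continued cells stayed in 200 nM tamoxifen until day 4, untreated cells never received it and were sampled on days 1 and 2, and day 0 cells preceded treatment. Each of these groups had 2 arrays. Nothing in the labels ties the replicate arrays to separate cultures, so the p-values cover only how far these arrays scatter, and that scatter may be technical.

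Zscan4 proteins carry a SCAN domain and zinc fingers. They are made in the mouse embryo around the time its own genome is first transcribed, and in cultured ES cells they appear in brief bursts in a small share of the cells. ERT2 is a mutated oestrogen receptor domain that keeps a fused protein inactive until tamoxifen binds it, and the CAG promoter drives the fusion in nearly all cell types. Removing tamoxifen is meant to return the fusion protein to its inactive state, so days 3 and 4 of this schedule follow cells after the inducer has been taken away.

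On every array the cells' RNA was labelled with Cy3 and a common reference with Cy5. The reference combined pooled RNA of 11 mouse cell lines with RNA of 129ES cells. Levels are given as log2 of sample over reference signal. The files pair no gene name with a probe, so probes are named by their identifiers, the ES cell identity of the samples could not be checked against marker genes, and no gene list could be counted. RNA was taken from whole cultures, in which fewer cells of a kind and less RNA per cell cannot be told apart.

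Probe sequences are shown for the largest rise and fall between day 3 and day 4 and for the probe whose rise differed most between withdrawn and continued cells, each with the next in rank. They are given 5′ to 3′ and in lower case, and their position in the genome was not determined. None of the 6 holds the polyadenylation hexamer AATAAA.
Z00010489-1: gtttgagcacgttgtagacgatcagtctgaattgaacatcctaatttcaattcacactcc
Z00048321-1: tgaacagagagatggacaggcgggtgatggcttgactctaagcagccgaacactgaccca
Z00003769-1: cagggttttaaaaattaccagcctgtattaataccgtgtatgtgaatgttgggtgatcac
Z00075179-1: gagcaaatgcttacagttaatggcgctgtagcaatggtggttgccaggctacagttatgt
Z00015007-1: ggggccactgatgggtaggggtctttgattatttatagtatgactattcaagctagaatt
Z00055024-1: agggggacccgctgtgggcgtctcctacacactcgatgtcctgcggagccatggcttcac
A further pair overlaps in sequence, was lower with tamoxifen than without it on day 2 and rose steeply after withdrawal. Capitals mark the 25 bases that the end of Z00077459-1 shares with the beginning of Z00068950-1.
Z00077459-1: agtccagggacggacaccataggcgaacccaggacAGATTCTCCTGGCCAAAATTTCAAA
Z00068950-1: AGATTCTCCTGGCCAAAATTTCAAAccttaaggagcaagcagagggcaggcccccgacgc

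Between day 3 and day 4 the expression profile of withdrawn cells changed broadly and, at most probes, by little. Of 29414 probes tested, 8433 were higher on day 4 (28.7%) and 6056 lower (20.6%), together 49.3%, at a Benjamini-Hochberg adjusted p under 0.05 in a limma fit to all 20 arrays. The median called rise was 1.28-fold and the median called fall 1.27-fold. Rises of at least 2-fold numbered 301 and falls of at least 2-fold 164. At 22029 probes (74.9%) both day 4 arrays lay on the same side of both day 3 arrays, and 14462 of these were called. The balance of rises and falls depended on the normalization within arrays: rises made up 58.2% of the calls with loess and 44.7% with median centring (5921 higher and 7336 lower). Calls were also fewer among dim probes, with 20.2% called among the 20% of probes with the lowest signal (5883 probes) and 65.4% at its highest, in the next to brightest class of that size.

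All day 4 arrays lay on one slide and all day 3 arrays on another, so slide and day cannot be told apart in this comparison. The common reference was the same on both slides and was therefore used to look for a slide shift. Its channel differed between the slides at 708 probes (2.41%; limma, adjusted p under 0.05), 327 higher and 381 lower on the day 4 slide. At an unadjusted p under 0.05 the number was 4458. The central 95% of reference shifts lay between -0.19 and 0.13 on the log2 scale, against -0.67 to 0.80 for the change in ratio. These spreads are not measured alike. The reference shift averages 4 arrays a slide and the ratio change 2 arrays a day, and the 2 were normalized differently. Of the probes called in the ratio, 447 (3.09%) were also called in the reference channel. The sample channel alone, normalized without the reference, gave the same direction at 11737 of the ratio calls (81%) and the opposite direction at 19. It is the numerator of the ratio on the same arrays, and the 2 changes correlated at 0.964 across probes. Its directions are therefore no independent check and would carry a slide effect on the samples too. The reference channel does not measure differences in how the samples themselves were labelled or hybridised on these slides.

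**Figure D1:**
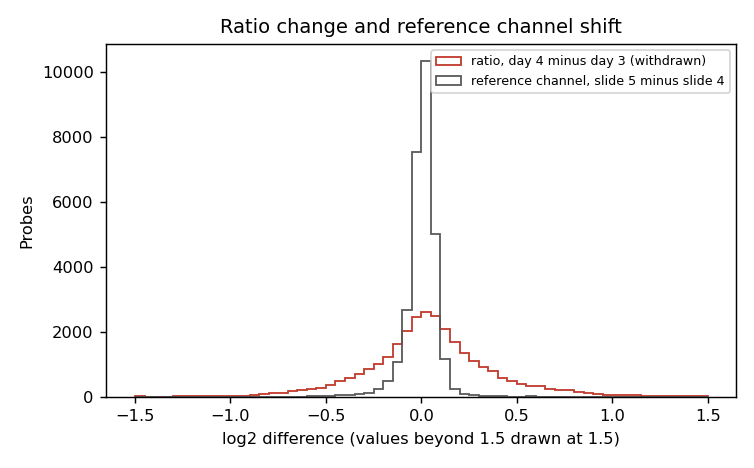
Number of probes (vertical axis) by log2 difference (horizontal axis, bins of 0.05) for the ratio change between day 4 and day 3 in withdrawn cells and for the shift of the reference channel between the slides of those days. The ratio changes spread widely, with 95% between -0.67 and 0.80, while 95% of the reference shifts lie between -0.19 and 0.13. The reference shift averages 4 arrays a slide and the ratio change 2 arrays a day, with different normalization.

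The 10 largest rises were shared by the continued cells and ended above the day 0 level, called in 10 of 10. On day 3, 4 of these probes were already called above day 0, against 6042 of all 29414 probes, and 3 lay below it. Z00010489-1 had log2 levels of 1.16 and 1.29 on the day 4 arrays, against -0.70 and -0.73 on the day 3 arrays. It had stood at -1.54 and -1.61 on day 0, at -2.33 and -2.12 on untreated day 1, and at -1.45 and -1.41 on withdrawn day 2. The probe climbed on each day after day 1, and its rise between day 3 and day 4 was the largest of all probes, 3.84-fold (log2 1.94, SE 0.076, limma adjusted p = 3.2e-11). Z00048321-1 was at -1.40 and -1.27 on day 4, against -3.19 and -3.20 on day 3, a 3.63-fold rise (log2 1.86, SE 0.069, adjusted p = 3.1e-11). On day 0 it had been at -3.49 and -3.54. It lay 0.32 above day 0 on day 3 and 2.18 above it on day 4 (log2), so most of its gain over day 0 fell between those days. Z00030610-1 changed even later: it was at 0.19 and 0.44 on day 4, against -1.47 and -1.49 on day 3, and at -1.58 and -1.42 on day 0. Its arrays of days 0, 1, 2 and 3 in all schedules lay between -1.76 and -1.39, below every day 4 array. Z00063266-1, Z00076777-1 and Z00075208-1 rose 3.59-fold, 3.44-fold and 3.52-fold.

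Of the 10 rises, 3 were also called in the reference channel, against 2.41% of all probes, and these are among the remaining 4. A dip on day 1 did not set the 4 apart. On untreated day 1, 9 of the 10 rises had been called below day 0, against 24.2% of all probes. Z00018375-1 was at 0.92 and 0.99 on day 4, against -0.91 and -0.85 on day 3, after -0.51 and -0.62 on withdrawn day 2 and -0.26 and -0.20 on day 0. Its rise of 1.83 (log2, SE 0.12) took it through its day 0 level and 1.18 above it. Z00005359-1 was at 1.51 and 1.68 on day 4, against -0.18 and -0.20 on day 3, and Z00036282-1 at 1.35 and 1.60 against -0.30 and -0.29. These 3 probes also shifted upwards in the reference channel between the slides, by 0.32, 0.21 and 0.27 in the order named. With the sample signal unchanged, a higher reference lowers the ratio. Across probes, though, the reference shift correlated positively with the sample channel change (0.341) and with the ratio change (0.153). Whether the slide moved both channels of these 3 probes was not tested. Z00023081-1 was at -0.28 and -0.07 on day 4, against -1.98 and -2.00 on day 3, and had stood at -3.19 and -2.97 on untreated day 1. Across all 10 rises the log2 change lay between 1.77 and 1.94 in withdrawn cells and between 1.42 and 1.97 in continued cells, called in 10 of 10 there too.

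The 10 largest falls were likewise shared, and most of them had been at their highest on day 1. Z00003769-1 fell to -0.60 and -0.67 on day 4, against 1.81 and 1.82 on day 3. On day 1 it had been at 2.80 and 2.82 in untreated cells and at 2.86 and 2.88 with tamoxifen, and on day 0 at 1.46 and 1.74. All arrays of days 1 to 3 lay above the lower of these day 0 values and all day 4 arrays below it, and its fall of 5.46-fold was the largest of all probes (log2 -2.45, SE 0.13, limma adjusted p = 7.1e-10). Z00075179-1 was at -2.01 and -2.14 on day 4, against 0.09 and 0.08 on day 3, after 0.43 and 0.48 on withdrawn day 2, 1.51 and 1.54 on untreated day 1 and -0.01 and 0.14 on day 0. It had thus come back to its day 0 level by day 3 and fell 4.46-fold against day 3 within the next day. Z00056888-1 and Z00068845-1 fell 3.16-fold and 3.18-fold, and Z00024220-1 fell 3.12-fold, to 2.00 and 1.94 on day 4 against 3.58 and 3.65 on day 3.

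Of the 10 falls, 3 had been called higher with tamoxifen than without it on day 2, against 13.8% of all probes. Another 3 had been called lower, against 11.1%. The day 2 arrays with and without tamoxifen lay on different slides. Z00026139-1 and Z00037900-1 had the largest of these differences (log2 0.95 and 0.77). Z00037900-1 was at -0.05 and 0.04 on day 4, against 1.59 and 1.69 on day 3. It had reached 3.20 and 3.33 on day 1 with tamoxifen, above 2.10 and 2.07 without it. Z00026139-1 was at 0.17 and 0.07 on day 4, against 1.84 and 1.82 on day 3, which was its highest value on any withdrawn array. Continued cells lost it as well, with 0.49 and 0.34 on day 4 against 1.92 and 1.86 on day 3. Over the 10 falls the log2 change lay between -2.45 and -1.64 in withdrawn cells and between -2.28 and -1.40 in continued cells. Of these 20 probes none had a change between day 3 and day 4 that differed between withdrawn and continued cells (limma test of the difference, adjusted p under 0.05), while 4 of the rises and 0 of the falls had an unadjusted p under 0.05.

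**Figure D2:**
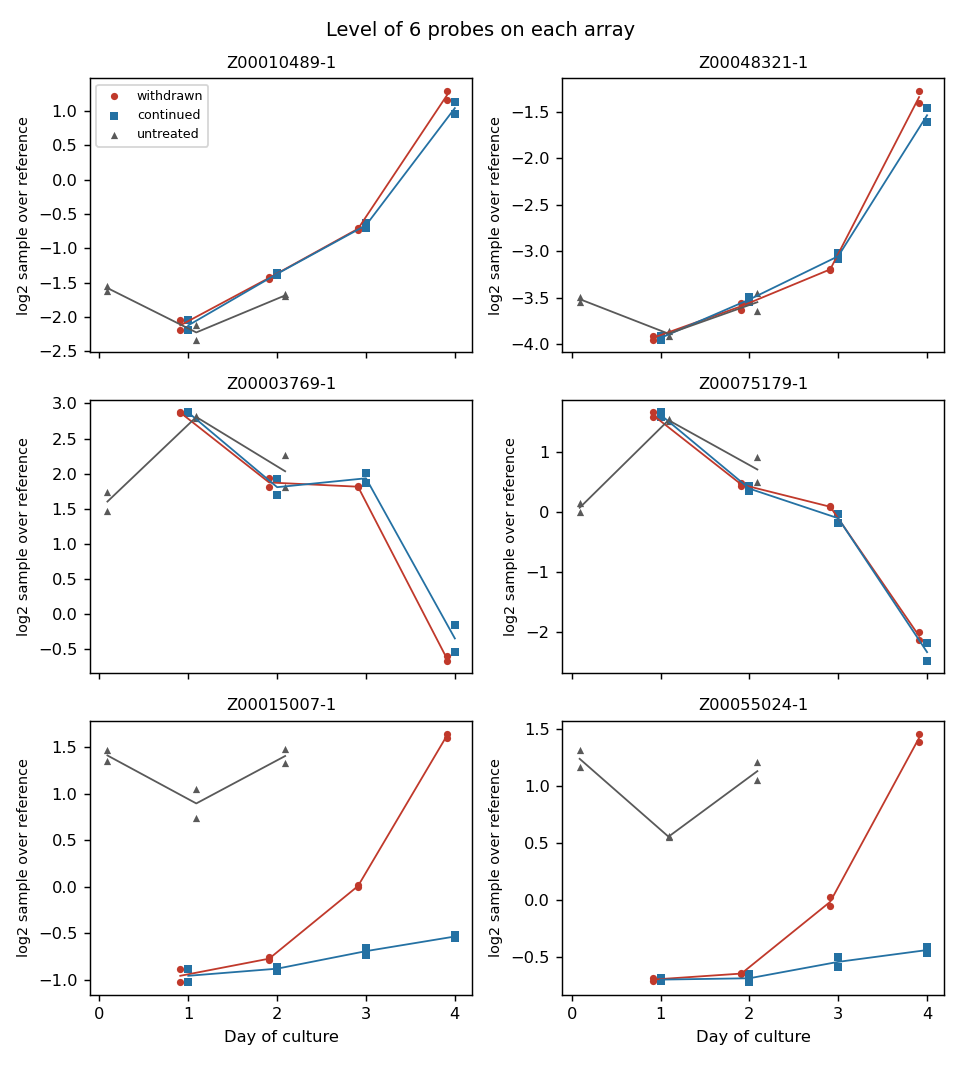
Log2 sample over reference (vertical axes, separate scale for each probe) by day of culture (horizontal axis) for the 2 largest rises, the 2 largest falls and the 2 largest differences between schedules. Points are single arrays, lines join group means, and the withdrawn and continued curves share the 2 tamoxifen arrays of day 1. In the upper 4 panels both tamoxifen curves move together on day 4, while in the lowest 2 the withdrawn arrays alone return to the level of day 0.

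To see which changes belonged to time in culture rather than to withdrawal, the same interval was read in continued cells, which use other arrays on the same pair of slides. There 8139 probes were higher on day 4 (27.7%) and 6017 lower (20.5%). Both schedules called 6749 probes higher and 4916 lower, which is 80.5% of the withdrawn and 82.4% of the continued calls, and 35 in opposite directions. The changes of the schedules correlated at 0.918 across probes, which are no independent replicates. A difference between the slides would enter both schedules alike, so this sharing does not separate time in culture from slide.

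The changes of day 4 were also set against those of the first day after plating. Untreated day 1 cells and day 0 cells lay together on a slide of their own and share no array or slide with days 3 and 4. This grouping was chosen after the values of the named probes had been seen. Of 29414 probes, 5753 were higher on untreated day 1 than on day 0 (19.6%) and 7121 lower (24.2%). Of those that had been lower on day 1, 4125 (57.9%, against 28.7% of all probes) were higher on day 4 than on day 3. Another 626 were lower (8.79%, against 20.6%). Of those that had been higher on day 1, 2791 (48.5%, against 20.6% of all probes) were lower on day 4. Another 685 were higher (11.9%, against 28.7%). Among probes not called on untreated day 1, 21.9% were higher on day 4 and 16% lower. In all, 6916 probes moved against their day 1 change and 1311 with it.

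The larger the change on day 1, the more one-sided was that of day 4. Among the 192 probes at least 2-fold lower on untreated day 1, 172 were higher on day 4 than on day 3 (89.6%, against 28.7% of all probes). Only 1 was lower, and the median log2 change was 0.65. Among the 127 probes at least 2-fold higher on day 1, 95 were lower on day 4 (74.8%, against 20.6% of all probes). Another 4 were higher, and the median was -0.50. Continued cells gave 164 higher (85.4%, against 27.7% of all probes) and 3 lower for the first of these sets. For the second they gave 91 lower (71.7%, against 20.5%) and 6 higher. The day 1 change itself had mostly passed by day 2: in the 2 sets the median difference from day 0 was -1.17 and 1.14 on untreated day 1 and -0.13 and 0.28 on untreated day 2. On withdrawn days 2, 3 and 4 the first set stood at -0.10, -0.07 and 0.59 relative to day 0, and the second at 0.11, -0.02 and -0.57. On day 4 both medians thus lay on the other side of day 0 from day 1. Probes moving against their day 1 change outnumbered those moving with it within each of 5 equal classes of signal, by 4.6 to 7.4 times.

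**Figure D3:**
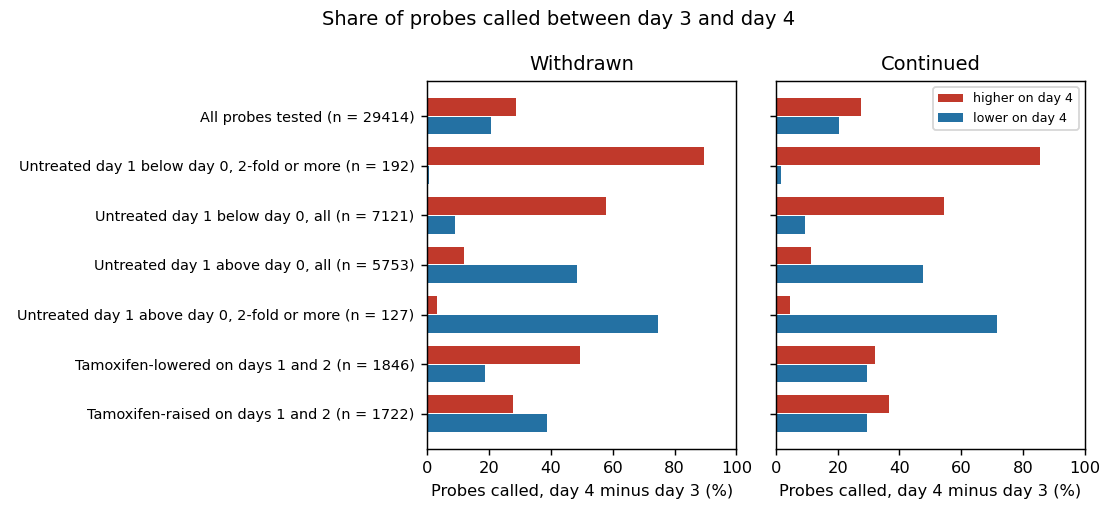
Percentage of probes called higher or lower on day 4 than on day 3 (horizontal axes) in withdrawn and continued cells, for all probes tested and for sets defined on days 0 to 2 (vertical axis, with the number of probes). Probes below day 0 on untreated day 1 are mostly higher on day 4 in both schedules, whereas the tamoxifen-lowered set is one-sided in withdrawn cells alone, with 49.4% higher and 18.6% lower.

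Movement toward day 0 was read from the probes displaced from it on withdrawn day 2, whose arrays take no part in the comparison of days 3 and 4. There were 9380 such probes (31.9%). Of these, 3566 (38%) then moved toward the day 0 side between day 3 and day 4, 2224 (23.7%) moved farther in the direction of their displacement, and 3590 (38.3%) were not called. Of the 4633 probes below day 0, 2018 were higher on day 4 (43.6%) and 847 lower (18.3%), against 28.7% and 20.6% of all probes. Of the 4747 above it, 1548 were lower (32.6%, against 20.6% of all probes) and 1377 higher (29%, against 28.7%). Continued cells were called the same way at 2619 of the 3566 probes that moved toward day 0 and at 2017 of the 2224 that moved away. Over all withdrawn calls the share called the same way was 80.5%. Of the 20034 probes not called against day 0 on withdrawn day 2, 8699 were called between day 3 and day 4. Of the 20034, 25.1% were higher and 18.3% lower on day 4, against 28.7% and 20.6% of all probes.

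Moving toward day 0 did not always mean arriving nearer to it. Of the 3566 probes, 2260 (63.4%) were closer to day 0 on day 4 than on day 3, and 1993 had crossed to its other side. Z00018375-1, Z00023081-1, Z00075179-1 and Z00011711-1, the largest movers of this kind, were all carried past day 0. Z00011711-1 was at -3.03 and -3.15 on day 4, against -1.35 and -1.28 on day 3, with -2.40 and -2.16 on day 0. Over all probes tested, the root mean square log2 distance from day 0 was 0.283, 0.323 and 0.446 on withdrawn days 2, 3 and 4 and 0.286, 0.363 and 0.495 in continued cells. The profile as a whole thus lay farther from day 0 on day 4 than on day 3 in both schedules. Days 0, 2, 3 and 4 lay on different slides, so these distances also hold differences between slides and the scatter of arrays. With displacement defined on untreated day 2 instead (2954 probes, 10%), 1149 moved toward day 0 and 709 away. Both counts also fell when the local backgrounds were used as given (1730 toward and 985 away), and 1472 rather than 2224 probes moved away without the second day 0 array.

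Calls toward day 0 were most frequent among the most displaced probes. Of the 189 probes at least 2-fold below day 0 on withdrawn day 2, 109 were higher on day 4 (57.7%, against 28.7% of all probes). Another 26 were lower (13.8%, against 20.6%). Of those 109, 104 were nearer to day 0 on day 4 than on day 3. Of the 171 at least 2-fold above day 0, 77 were lower (45%, against 20.6% of all probes) and 39 higher (22.8%, against 28.7%). Of the 77, 73 came nearer. Probes chosen as far from day 0 and called toward it have room to come nearer. The counts of nearer probes therefore follow largely from that choice. Of the 3908 probes less than 1.5-fold below day 0, 1618 were higher (41.4%) and 749 lower (19.2%). Of the 4125 less than 1.5-fold above it, 1281 were lower (31.1%) and 1203 higher (29.2%). Median changes of the 189 most lowered probes were 0.32 in withdrawn cells and -0.11 in continued cells on the log2 scale.

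Probes that moved on with culture time include 4 that had been displaced on withdrawn day 2 and went farther. Z00003765-1 was at -0.59 and -0.71 on day 4, against 0.81 and 0.74 on day 3, with 1.82 and 1.84 on day 0 and 0.58 and 0.73 on withdrawn day 2. Z00064524-1 was at -0.53 and -0.56 on day 4, against 0.83 and 0.83 on day 3, and had been at 0.79 and 0.78 on day 0, so on day 3 it had been back at its starting level. Z00063867-1 was at 2.24 and 2.28 on day 4, against 0.78 and 0.80 on day 3, with 0.05 and 0.03 on withdrawn day 2 and -0.08 and -0.23 on day 0. Its 2.77-fold rise (log2 1.47, SE 0.057, limma adjusted p = 3.2e-11) continued an earlier one. Z00017619-1 was at 2.46 and 2.58 on day 4, against 0.96 and 0.91 on day 3. Its reference channel was 0.42 higher on the day 4 slide, and its ratio rose by 1.59. All 4 changed alike in continued cells, by -1.31, -1.36, 1.16 and 1.57 in the order given.

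Probes that differed with tamoxifen were followed as a set of their own. Compared with untreated cells, 1846 probes were lower with tamoxifen on both day 1 and day 2 (6.28%) and 1722 higher on both (5.85%). On each of these days the tamoxifen and untreated arrays lay on different slides, so tamoxifen and slide cannot be told apart in these calls. The names tamoxifen-lowered and tamoxifen-raised stand for the calls only. In withdrawn cells, 912 of the tamoxifen-lowered probes (49.4%, against 28.7% of all probes) were higher on day 4 than on day 3. Another 344 were lower (18.6%, against 20.6%), and the median log2 change was 0.16. In continued cells the same probes split into 594 higher (32.2%, against 27.7% of all probes) and 544 lower (29.5%, against 20.5%), with a median of 0.00. Of the tamoxifen-raised probes, 667 were lower on day 4 in withdrawn cells (38.7%, against 20.6% of all probes). Another 479 were higher (27.8%, against 28.7%), and the median was -0.06. Continued cells had 509 lower (29.6%, against 20.5%) and 628 higher (36.5%, against 27.7%), with a median of 0.02. The median level of the lowered probes relative to day 0 was -0.43, -0.40 and -0.24 on withdrawn days 2, 3 and 4, and -0.43, -0.50 and -0.49 on the continued days. That of the raised probes was 0.39, 0.40 and 0.36 after withdrawal and 0.40, 0.50 and 0.53 in continued tamoxifen. The median of the lowered set thus came part of the way back, and that of the raised set on day 4 was near its day 2 value. The sets themselves shrank under some settings. The 912 of 1846 became 574 of 1431 (40.1%) with median centring, 499 of 934 (53.4%) when each fit held its own groups only and 490 of 962 (50.9%) with local backgrounds as given. Over all probes tested, 5921, 8875 and 5686 were higher under these settings in that order, against 8433 in the main fit. Lower were 7336, 6430 and 4324, against 6056. The 667 of 1722 raised probes became 297 of 730 (40.7%) with local backgrounds as given, 308 of 704 (43.8%) with only the groups compared and 439 of 1090 (40.3%) without the second day 1 tamoxifen array.

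The difference between the schedules in the change from day 3 to day 4 was tested next, because withdrawn and continued cells share a slide on each day and a shift of a whole slide cancels in it. The change was more positive after withdrawal at 203 probes (0.69%) and more negative at 27 (0.0918%; limma, adjusted p under 0.05). Of the 203, 188 had been called lower with tamoxifen than without it on day 2, against 11.1% of all probes. Below day 0 on withdrawn day 2 lay 187 of them, against 15.8%. The arrays with and without tamoxifen on day 2 lay on different slides, as did those of day 0 and withdrawn day 2. The 203 and the 27 were chosen by the difference between schedules, so their medians on days 3 and 4 only describe them. The median log2 change of the 203 was 0.56 in withdrawn and -0.01 in continued cells. Relative to day 0 their median was -0.84, -0.57 and -0.07 on withdrawn days 2, 3 and 4, and -0.82, -0.83 and -0.77 on the continued days. Of the 27, 21 had been called higher with tamoxifen on day 2, against 13.8% of all probes, and their median change was -0.10 in withdrawn and 0.32 in continued cells.

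The number of these probes was sensitive to single arrays. It was 99 without the first withdrawn day 3 array, 124 without the second withdrawn day 4 array and 143 without the first continued day 4 array, against 230 with all. It was 325 without either untreated day 1 array, which enters only through the common spread. It was 143 with Agilent's processed signals, 149 with the deposited series matrix and 34 with the local backgrounds as given.

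**Figure D4:**
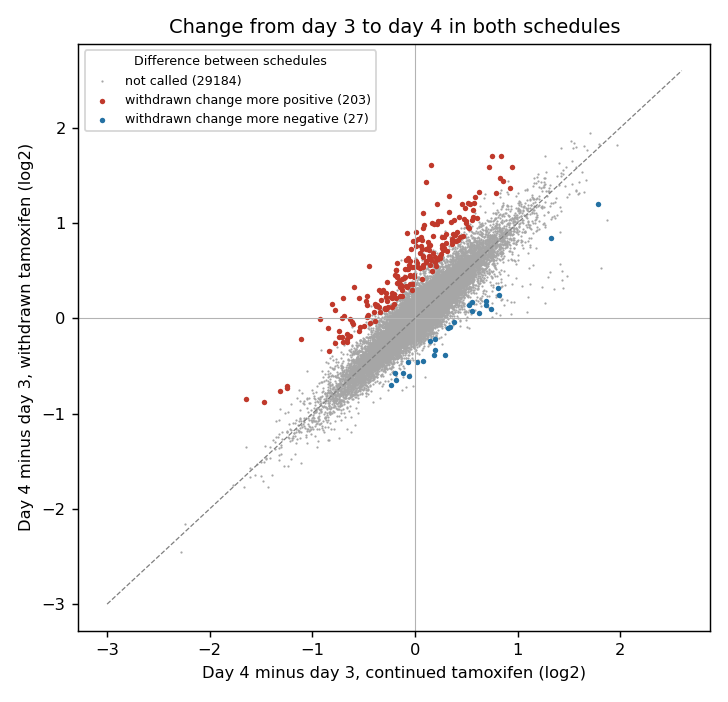
Log2 change from day 3 to day 4 in withdrawn cells (vertical axis) against that in continued cells (horizontal axis), 1 point for each of 29414 probes, with the line of equal change dashed. Most probes lie along the line; the 203 probes with a more positive change after withdrawal lie above it and the 27 with a more negative change below it.

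The 8 probes followed here, 5 with a more positive and 3 with a more negative change after withdrawal, were picked by the size of that difference, which fixes that they moved between day 3 and day 4 in at least one schedule. Z00015007-1 was at 1.65 and 1.60 on withdrawn day 4, against 0.00 and 0.02 on withdrawn day 3 and -0.75 and -0.79 on withdrawn day 2. Continued cells had -0.55 and -0.52 on day 4 against -0.65 and -0.73 on day 3, while day 0 cells had 1.47 and 1.35. The withdrawn arrays of day 4 were thus above both day 0 arrays, and its change was 1.46 greater after withdrawal (log2, SE 0.12, limma adjusted p = 1.1e-05). Z00055024-1 followed the same course, at 1.46 and 1.39 on withdrawn day 4 against -0.05 and 0.03 on day 3, with 1.31 and 1.17 on day 0. In continued cells it was at -0.46 and -0.41 on day 4 against -0.50 and -0.58 on day 3, a difference in change of 1.33 (SE 0.09, adjusted p = 1.3e-06).

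Z00046616-1, Z00056656-1 and Z00035520-1 had not come back fully by day 4. Z00046616-1 was at -1.62 and -1.60 on withdrawn day 4, against -2.77 and -2.66 on day 3, with -1.01 and -0.93 on day 0. Z00056656-1 was at -0.22 and -0.17 on withdrawn day 4, against -1.41 and -1.38 on day 3, below its day 0 values of 0.06 and -0.06. Z00035520-1 moved both ways: withdrawn cells had -1.0 and -1.01 on day 4 against -1.58 and -1.52 on day 3, and continued cells -2.79 and -2.80 against -2.40 and -2.30. Its day 0 values were -0.08 and -0.34. The differences in change of these 3 probes were 1.03, 0.98 and 0.99 on the log2 scale.

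Among probes with a more negative change after withdrawal, Z00034203-1 moved back toward day 0 from above. It was at 0.34 and 0.42 on withdrawn day 4 against 0.72 and 0.81 on day 3, and in continued cells at 1.30 and 1.36 against 1.06 and 1.00, with -0.02 and 0.03 on day 0. Z00055591-1 was at 2.05 and 2.08 on withdrawn day 4 against 2.06 and 1.88 on day 3, so that these arrays overlap, and rose in continued cells alone, to 2.83 and 2.92 against 2.23 and 2.03. Z00019902-1, not called against day 0 on withdrawn day 2, rose in both schedules but by 0.58 less after withdrawal. The calls of these 3 probes did not hold in every setting: all 3 were lost with local backgrounds as given, Z00055591-1 and Z00019902-1 also with Agilent's processed signals (adjusted p = 0.071 and 0.26), and Z00019902-1 with the series matrix (adjusted p = 0.19).

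**Figure D5:**
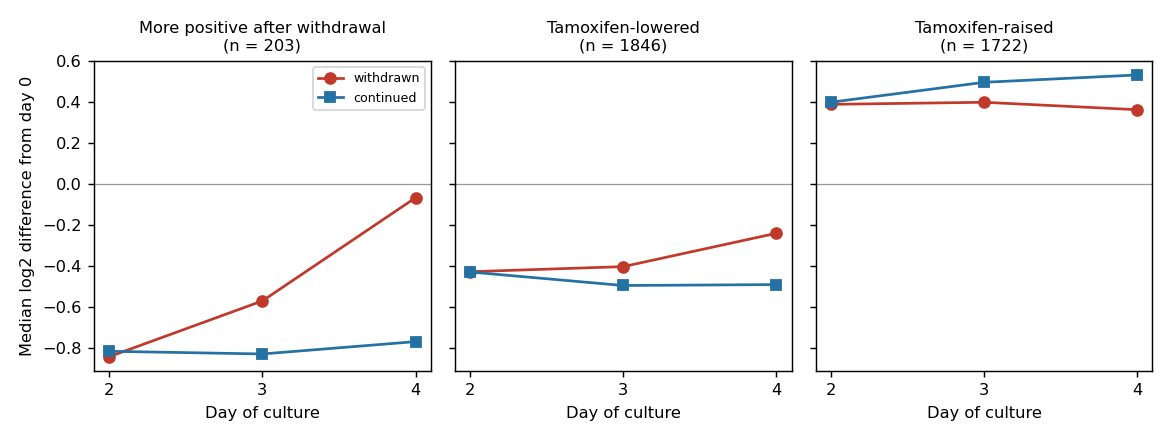
Median log2 difference from day 0 (vertical axis) on days 2, 3 and 4 (horizontal axis) in withdrawn and continued cells for the 203 probes whose change was more positive after withdrawal, the 1846 tamoxifen-lowered and the 1722 tamoxifen-raised probes. The first set reaches -0.07 on withdrawn day 4 and -0.77 in continued cells; it was chosen by its day 3 to day 4 change, so its course between those days is a description.

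The overlapping pair printed above gave 2 readings of a shared stretch. Z00077459-1 was at -1.52 and -1.67 on withdrawn day 4, against -3.31 and -3.28 on day 3, and at -2.31 and -2.41 on day 0. Z00068950-1 was at -1.54 and -1.67 on withdrawn day 4, against -3.29 and -3.33 on day 3, and at -2.25 and -2.38 on day 0. Both had been lower with tamoxifen than without it on day 2 (log2 -1.50 and -1.52), and both ended above day 0. In continued cells they rose by 0.75 and 0.84, less than after withdrawal (difference in change 0.95 and 0.86, limma adjusted p = 0.00017 and 0.00033). The pair was chosen after its values were seen, as the overlapping pair with the largest shared change.

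Overlapping probes as a whole gave like readings when they lay on the same strand. Of 992 tested pairs that share at least 25 bases in a row, 494 were called in the same direction, 1 in opposite directions, 140 at a single member and 357 at neither, and their changes correlated at 0.96 across pairs. The median absolute difference within a pair was 0.04 on the log2 scale. Among 44 pairs on opposite strands, 3 were called alike and 4 in opposite directions, with a correlation of -0.129. Z00073996-1 and Z00074439-1, complementary over 50 bases, changed by -0.76 and 0.80. Probes lower on day 4 held fewer G and C bases, with a median of 41.7%, against 45% in probes higher on day 4 and 45% in those not called. The share of probes lower on day 4 was 29.5% at a GC content of 40% or less and 8.26% above 60%, while the median difference between schedules lay between 0.00 and 0.01 on the log2 scale in all 4 GC classes. The part of base composition in the falls was not tested.

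A few probes could be placed by their sequence. Windows of 250 bases before to 50 bases after RefSeq gene starts (GRCm38.p6) hold 127 of the 42006 probes on the strand of the gene, and 30 tested probes cross the annotated start of a single gene at a single place. Of these, 3 were higher on day 4 (10%, against 28.7% of all probes) and 5 lower (16.7%, against 20.6%). Z00075310-1 lies at chr11:114668526-114668585 and Z00032009-1 at chr11:114668538-114668597 on the plus strand, across the start of Rpl38, which encodes a protein of the large ribosomal subunit. Capitals mark the 48 bases they share.
Z00075310-1: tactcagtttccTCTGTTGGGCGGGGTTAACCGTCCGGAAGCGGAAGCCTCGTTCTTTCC
Z00032009-1: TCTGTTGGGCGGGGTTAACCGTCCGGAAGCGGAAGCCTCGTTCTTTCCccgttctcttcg
Z00075310-1 was at 0.78 and 0.82 on day 4, against 1.38 and 1.48 on day 3, with 0.82 and 0.92 on day 0, a return by -0.64 (log2, SE 0.058, limma adjusted p = 1.1e-07). Z00032009-1 was at 0.67 and 0.66 on day 4, against 1.03 and 1.05 on day 3, with 0.42 and 0.45 on day 0, a change of -0.38. Continued cells changed by -0.73 and -0.40 at these probes. Matches elsewhere in the genome were not examined, so the signal is not assigned to Rpl38 alone.

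Other probes across gene starts changed by less than 2-fold. Z00056199-1, across the start of Leng1 on chromosome 7 and also overlapping the annotated Tmc4, was at 0.67 and 0.82 on day 4, against -0.03 on both day 3 arrays. Z00060783-1, across the start of Aurkc, a gene for an Aurora kinase of meiotic cells, was at 0.08 and 0.25 on day 4, against -0.32 and -0.28 on day 3, and between -0.38 and -0.28 on every array up to day 3. Z00064043-1, across the start of Fau, which encodes a ubiquitin-like protein fused to a ribosomal protein, changed by -0.17 (SE 0.056, limma adjusted p = 0.021). Continued cells changed by 0.89, 0.41 and -0.21 at these 3 probes.

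Some probes were well above background on only one of the days. On both day 4 arrays and neither day 3 array this was so for 59 probes called higher, and on both day 3 arrays and neither day 4 array for 76 called lower. For them a fold is a lower bound in the sample channel, set against the higher of the dim probe's own signal and the lowest signal well above background on the array. Z00056803-1 was at least 1.39-fold higher on day 4 (limma adjusted p = 1.5e-05 for the ratio), and Z00070358-1 at least 1.55-fold lower on day 4 (adjusted p = 1.9e-07).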

How the data were processed

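Total RNA of 20 samples, 2 for each of 10 groups, was measured on 2-colour Agilent arrays of 60-base probes. The deposited scanner files hold linear intensity values for sample (Cy3) and reference (Cy5) which per the file headers come from version 9.5.1.1 of Agilent Feature Extraction. The deposited series matrix holds values whose log10 scale was inferred by setting them against the scanner signals; the authors' centring and normalization of them are unknown here, their direction is that of the sample signal, and column medians lay between 2.305 and 2.336. Mean signals were background corrected (normexp, offset 50) and normalized by loess within arrays in limma 3.58.1 (R 4.3.3). On one untreated day 1 array, 12 local backgrounds above 10 times the array's median were replaced by that median, a choice made after seeing the data. Spots flagged as outliers were set to missing and spots of a probe averaged. A probe was tested if any group had it well above background on both arrays (29414 of 42006) in a group-means model over all 20 arrays with 10 residual degrees of freedom. Folds understate changes of dim probes, and 2 arrays a group limit the precision.

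A probe was called at a Benjamini-Hochberg adjusted p under 0.05. Named probes were the 10 largest called changes in each direction whose arrays did not overlap, and the 2 largest in each direction among those toward and among those away from day 0. Probes with the largest difference between schedules, the overlapping pair and the probes at gene starts were chosen after their values were seen. The comparison, its members and the lists were chosen with earlier results of these data known. Gene lists could not be applied without gene names. The fit was tested on simulated data. Same-numbered arrays of withdrawn day 4 and day 3 deviated together with a correlation of 0.064, so the numbers were not taken as pairs. Alternatives changed the background correction, normalization, filter, value table, groups in the fit, replicate block and arrays left out. Sequences at gene starts are from RefSeq, GRCm38.p6.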

Additional observations from a re-analysis of the deposited data

Results flagged for a closer look

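The change from day 3 to day 4 differed between withdrawn and continued cells at 230 probes by the limma test of that difference (adjusted p under 0.05), 203 with a more positive and 27 with a more negative change after withdrawal. The 8 probes followed by array drew attention for the same reason, a change that differed between the schedules. Withdrawn minus continued, the differences on the log2 scale were 1.46 for Z00015007-1, 1.33 for Z00055024-1, 1.03 for Z00046616-1, 0.99 for Z00035520-1 and 0.98 for Z00056656-1. They were -0.68 for Z00034203-1, -0.65 for Z00055591-1 and -0.58 for Z00019902-1, and these 3 lost their calls in some settings. Groups of 2 arrays were not examined for single arrays far from the rest.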

How the results depend on the processing

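With the local backgrounds as given, which alter the fit of 1 untreated day 1 array and through it the common spread, 34 probes differed between the schedules in place of 230. Probes moving toward and away from day 0 numbered 1730 and 985, tamoxifen-lowered probes that were higher on day 4 numbered 490 of 962 and tamoxifen-raised probes that were lower 297 of 730, and 3660 probes moved against their day 1 change. Agilent's processed signals gave 143 and the series matrix 149 differences between schedules. Median centring gave 574 of 1431 tamoxifen-lowered probes that were higher. Fits with only the groups compared gave 499 of 934 and 308 of 704 for the tamoxifen sets and 729 probes moving with their day 1 change. Displacement set on untreated day 2 gave 1149 toward and 709 away. At least 1.5-fold, 2890 probes changed between day 3 and day 4. The reference channel had 401 calls in a fit of the 8 arrays of the 2 slides.

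Leaving out 1 array of the groups compared gave 11806 to 12610 calls between day 3 and day 4, 2655 to 3173 toward and 1472 to 2093 away from day 0, 675 to 985 tamoxifen-lowered probes higher and 439 to 701 tamoxifen-raised probes lower. It gave 99 to 178 differences between schedules, 5755 to 6833 probes moving against and 882 to 1731 with their day 1 change, and 441 to 657 calls in the reference channel. Arrays of other groups enter only through the common spread: without either untreated day 1 array there were 15477 calls, 4138 toward, 2631 away and 325 differences between schedules. The reference channel count fell to 441 without the first continued day 3 array and to 455 and 449 without either withdrawn day 4 array. Probes moving against their day 1 change outnumbered those moving with it by 3.84 to 6.99 times, and those toward day 0 those away from it by 1.33 to 2.14 times, in all settings run. Under the other settings, the 24 named probes kept direction and call in 351 values and lost the call in 1. That was Z00024220-1 with the local backgrounds as given (adjusted p = 0.11). The 8 probes named for differing between schedules kept the call in 144 values and lost it in 6, which were 3 of Z00019902-1, 2 of Z00055591-1 and 1 of Z00034203-1 (adjusted p = 1, 1 and 0.37 with local backgrounds as given). The replicate number as a block gave 14521 calls in place of 14489, and 229 differences between schedules, and the numbers are not known to pair the arrays. Leaving out probes called in the reference channel, an alternative added after seeing the data, left 14032 calls. Among dim probes the signal over background limits what could be called.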
